A study of Mus musculus with 6 samples.

Results

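Guidance cues are secreted or membrane-bound proteins, first described in growing axons, that tell a cell or cell process where to move. Semaphorins signal through plexins and neuropilins, slits through the Robo receptors, netrins through Unc5 receptors, neogenin and DCC, and ephrins through the Eph receptor tyrosine kinases. In the mammary gland these systems are known from the growing ductal tree: netrin 1 and neogenin hold the layers of the terminal end bud together, slits acting through Robo1 restrain side branching and keep the bilayer intact, and Eph receptors act in branching and in vessels. The genes were taken by family symbol (Sema3 to Sema7, Plxna to Plxnd, Nrp1 and Nrp2, Slit1 to Slit3, Robo1 to Robo4, Ntn, Unc5a to Unc5d, Epha, Ephb, Efna and Efnb); these families were picked with earlier results of these data known. Of 22180 genes read by a probe set of their own, 66 belonged to these families: 20 semaphorins, 9 plexins, 2 neuropilins, 3 slits, 4 Robo receptors, 3 netrins, 4 Unc5 receptors, 8 ephrins and 13 Eph receptors. Ephb2 and Ntn5 had no probe set assigned to them alone and were not analysed here.

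RNA came from the whole inguinal mammary gland of 4-week-old C57BL/6J mice, and 6 arrays were run. The 3 wild-type mice had the genotype Mt1-mmp(+/+), and Mt1-mmp is now named Mmp14, a membrane-anchored matrix metalloproteinase. The 3 stromal knockouts had the genotype Dermo1Cre/Mt1-mmp(fl/fl): the Dermo1 locus (now Twist2), which is active in mesenchymal cells, drives a Cre that recombines the floxed gene. The series' design text names the wild-type mice as littermates. No group carries the Cre with an intact Mmp14, so an effect of the Cre cannot be told apart from that of the deletion, and the sources used here do not say whether an array held RNA of 1 gland or of several. All values are log2 signals, 1 unit being a 2-fold step, and differences are knockout minus wild type with the standard error (SE) of a limma fit over all 22180 genes; a gene "fell" or "rose" where its Benjamini-Hochberg adjusted p from that fit was under 0.05. There are 3 arrays a group throughout. The adjusted p-values weigh each difference against the spread between arrays of a group, which limma draws toward a value common to all genes. The small number of arrays limits the precision of these p-values.

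Mmp14 was lower on the arrays labelled knockout (8.62 ± 0.11, SD) than on those labelled wild type (10.88 ± 0.32), which goes with the labels. Array medians over genes lay between 4.45 and 4.71. Wild type 1 stood apart in skeletal muscle genes: the mean of 12 markers was 5.78 on that array and 2.91 to 3.61 on the other 5, so counts are also given without it. Markers of several cell types differed between the groups, as the plot of marker lists by array shows. Over all genes 7.20% fell and 5.05% rose. All 16 measured luminal epithelial markers fell (list mean 7.44 to 7.65 on wild-type arrays, 5.27 to 5.52 on knockout arrays), as did 10 of 13 basal and myoepithelial markers (6.65 to 7.07 against 5.14 to 5.48), 7 of 12 fibroblast markers (10.30 to 10.55 against 9.68 to 9.84) and 5 of 10 macrophage markers (8.62 to 8.95 against 8.24 to 8.34). In the other direction, 4 of 14 endothelial markers rose (7.37 to 7.51 against 7.73 to 8.16), 3 of 8 pericyte and vascular muscle markers (7.14 to 7.35 against 7.47 to 7.76) and 6 of 10 thermogenic adipocyte markers (5.29 to 6.76 against 7.33 to 7.87). In RNA of a whole gland, fewer cells of a type and less RNA per cell cannot be told apart, and the part of these shifts in the guidance genes was not tested.

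**Figure D1:**
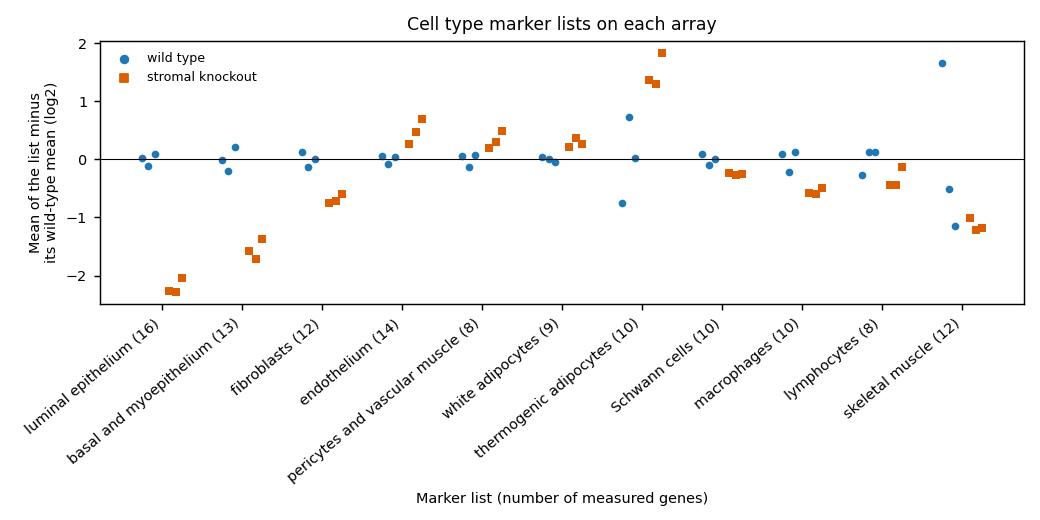
Mean log2 signal of each cell type marker list on each array, minus the list's wild-type mean; the number of measured genes is in parentheses, circles are wild-type and squares knockout arrays. Luminal, basal, fibroblast and macrophage lists lie lower on all 3 knockout arrays and endothelial and thermogenic lists higher, while wild type 1 stands apart for skeletal muscle, at 5.78 against 2.91 to 3.61 on the others.

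Guidance genes lay lower in the knockout gland. Of the 66, 17 fell (25.8%, against 7.20% of all genes) and 1, the plexin gene Plxna2, rose (1.52%, against 5.05%). The median difference of the 66 genes was -0.23, beside 0.03 over all genes, and 48 of the differences were negative; without wild type 1 the median was -0.14. All 3 knockout arrays lay below all 3 wild-type arrays for 24 guidance genes (36.4%, against 15.4% of all genes) and above them for 6 (9.09%, against 17.2%). Among 32 receptors 10 fell and 1 rose, and among 34 ligands 7 fell; the difference between receptors and ligands was not tested. Genes whose mean lay under the 33rd percentile of gene levels (2.68) in both groups were taken as too low to give a direction. This held for Sema4f, Robo3, Unc5d, Epha5 and Epha6, and the other 61 genes were not low in both groups. Of those, Slit1 lay under that level in the knockout (2.51) and Epha8 in wild type (2.58). Without wild type 1, 10 guidance genes fell and none rose (limma, with 22 and 4 at an unadjusted p under 0.05), and without knockout 2 or without wild type 3 the falls numbered 10 and 11. Calls over all genes dropped too: 969 fell and 521 rose without wild type 1. Falls over all genes numbered 1003 without knockout 2 and 1084 without wild type 3, beside 1596 with all arrays. Centring each array on its median put the median difference over all genes at 0.22 in place of 0.03. With that scaling 14 guidance genes fell and 4 rose, with a median of -0.048, beside 1178 falls and 3155 rises over all genes (1596 and 1121 without it).

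**Figure D2:**
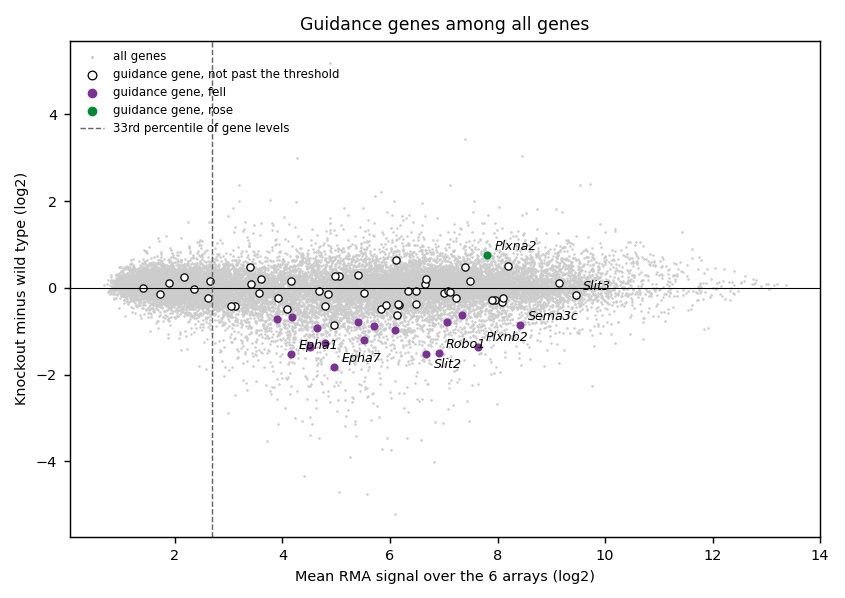
Knockout minus wild type (log2) against mean log2 signal over the 6 arrays, for 22180 genes (grey) and 66 guidance genes (circles). The 17 guidance genes that fell spread from -0.62 to -1.83 and over levels from 3.90 to 8.42, and Plxna2 is the 1 that rose (0.76).

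Slit2 and its receptors Robo1 and Robo2 all fell. Slits are large secreted repellents that bind Robo receptors through leucine-rich repeats. Slit2 read 7.74, 7.41 and 7.17 on wild-type arrays 1 to 3 and 5.85, 5.83 and 6.06 on knockout arrays 1 to 3. The groups lay more than 1 unit apart, and Slit2 fell by 1.53 ± 0.17 log2 units (2.88-fold, adjusted p = 0.00174). Slit3, the guidance gene with the highest signal of the 66, read 9.65, 9.39 and 9.60 in wild type and 9.45, 9.36 and 9.32 in the knockout. Its groups overlapped, and the difference of -0.17 ± 0.12 did not pass (adjusted p = 0.423). Slit1 lay near the low end, with means of 2.74 ± 0.11 (SD, wild type) and 2.51 ± 0.39 (knockout).

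Robo1, the receptor best known from mammary ducts, read 7.87, 7.41 and 7.70 in wild type and 5.53, 6.08 and 6.85 in the knockout. The knockout arrays spread widely, with an SD of 0.66, but none reached a wild-type array. Robo1 fell by 1.51 ± 0.31 (2.84-fold, adjusted p = 0.0185); leaving out wild type 1 (0.0746), wild type 3 (0.0628) or knockout 2 (0.0631) ended the call. Robo2, a closely related Slit receptor, read 5.48, 5.09 and 5.68 in wild type and 4.22, 4.37 and 3.86 in the knockout. These groups were clearly apart, and Robo2 fell by 1.27 ± 0.19 (2.40-fold, adjusted p = 0.00649). Robo4, the endothelial member of the family, did not pass: its arrays read 7.27, 7.05 and 7.15 against 7.44, 7.40 and 8.05, a difference of 0.47 ± 0.19 (adjusted p = 0.158). The groups of Robo4 did not overlap, knockout 3 was its highest array, and the same array had the highest endothelial list mean (8.16). That array also had the highest pericyte and vascular muscle (7.76) and thermogenic adipocyte (7.87) list means. A link between Robo4 and any of these lists was not tested. Without knockout 3 the difference of Robo4 was 0.26 (adjusted p = 0.287). Of the 14 alternatives run, Robo4 passed in 1, with arrays centred on their medians (0.66, adjusted p = 0.0337).

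The promoters of Slit2, which fell, of Slit3, the member with the highest signal, and of Plxna2, the 1 gene that rose, are shown because they are the nearest regulatory sequence to each start site; the arrays did not measure them. RefSeq promoters (build GRCm38.p6) were found for 57 of the 66 genes, 73 in all, and read over the 250 bases before each annotated start. Capitals mark matches, on either strand and with overlaps allowed, to the GC box (GGGCGG), the TATA box (TATAAA), the CCAAT box (CCAAT) and the motif of TEAD factors (GGAATG).
Slit2, chr5:47982905-47983154, plus strand: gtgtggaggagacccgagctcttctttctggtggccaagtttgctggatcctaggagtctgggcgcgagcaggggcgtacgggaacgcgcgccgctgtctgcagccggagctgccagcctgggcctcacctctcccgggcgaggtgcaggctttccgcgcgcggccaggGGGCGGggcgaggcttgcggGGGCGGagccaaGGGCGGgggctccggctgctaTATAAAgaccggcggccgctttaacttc
Slit3, chr11:35121206-35121455, plus strand: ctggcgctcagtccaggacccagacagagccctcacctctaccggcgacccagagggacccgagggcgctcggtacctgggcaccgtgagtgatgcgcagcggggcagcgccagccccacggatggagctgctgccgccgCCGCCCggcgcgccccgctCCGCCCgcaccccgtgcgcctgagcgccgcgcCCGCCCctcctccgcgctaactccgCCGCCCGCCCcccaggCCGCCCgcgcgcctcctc
Plxna2, chr1:194619579-194619828, plus strand: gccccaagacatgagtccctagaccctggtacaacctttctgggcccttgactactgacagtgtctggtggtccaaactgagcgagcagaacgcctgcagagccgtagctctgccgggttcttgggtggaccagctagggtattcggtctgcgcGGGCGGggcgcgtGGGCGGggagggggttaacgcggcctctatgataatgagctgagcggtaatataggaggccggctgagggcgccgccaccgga
Slit2 has 3 GC boxes and a TATA box that begins 28 bases before the start, Slit3 has 6 GC boxes and Plxna2 has 2. The guidance promoters as a group are rich in GC: the median GC share was 64.4%, against 52.4% over all 32851 RefSeq promoters. These belong to 27025 genes and not only to the 22180 measured here. A GC box stood in 72.6% of guidance promoters and 32.7% of all promoters, and a TATA box in 2.74% and 12.4%. Among the genes that fell, 15 of 24 promoters held a GC box (62.5%) and 1 held a TATA box; among those not past the threshold it was 37 of 48 (77.1%) and 1. CCAAT boxes stood in 26.0% of guidance and 33.8% of all promoters, and the TEAD motif in 11.0% and 12.6%. A match describes the letters in this window and not a bound site.

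Netrins are laminin-related secreted proteins, and Unc5 receptors carry their repulsive signal. Unc5a was the 1 gene of these 7 that passed (14.3%, near the 12.2% of all genes called in either direction). Unc5a read 7.84, 7.18 and 7.33 in wild type and 6.57, 6.46 and 6.95 in the knockout, and fell by 0.79 ± 0.21 (1.73-fold, adjusted p = 0.0452). Its highest knockout array lay just below its lowest wild-type array, and leaving out any array but knockout 3 ended the call (adjusted p up to 0.137), as did centring (0.0559). Ntn1, the netrin known from the terminal end bud, read 6.16, 6.05 and 6.15 in wild type and 5.75, 5.70 and 5.75 in the knockout. The arrays of each group were tight and the groups apart, yet the difference of -0.39 ± 0.11 just missed the threshold (adjusted p = 0.0550). Ntn4, a netrin of basement membranes, was also lower on every knockout array (5.89, 6.04 and 6.31 against 5.69, 5.57 and 5.54), with a difference of -0.48 ± 0.14 (adjusted p = 0.0656). Both passed when low genes were left out of the fit (0.0320 and 0.0445), and Ntn1 with array weights (0.0416). Neither passed with any array left out (adjusted p up to 0.159 and 0.166), and with arrays centred the differences were -0.20 (0.223) and -0.29 (0.198). Ntn3 differed by 0.48 ± 0.36, Unc5b by -0.13 ± 0.17 and Unc5c by 0.10 ± 0.19, all with overlapping groups. Of the other netrin receptors, the neogenin gene Neo1 read 9.24, 8.96 and 8.97 in wild type and 8.36, 8.56 and 8.66 in the knockout and fell by 0.53 ± 0.14 (adjusted p = 0.0428), while Dcc lay under the low level in both groups (2.10 and 1.92).

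**Figure D3:**
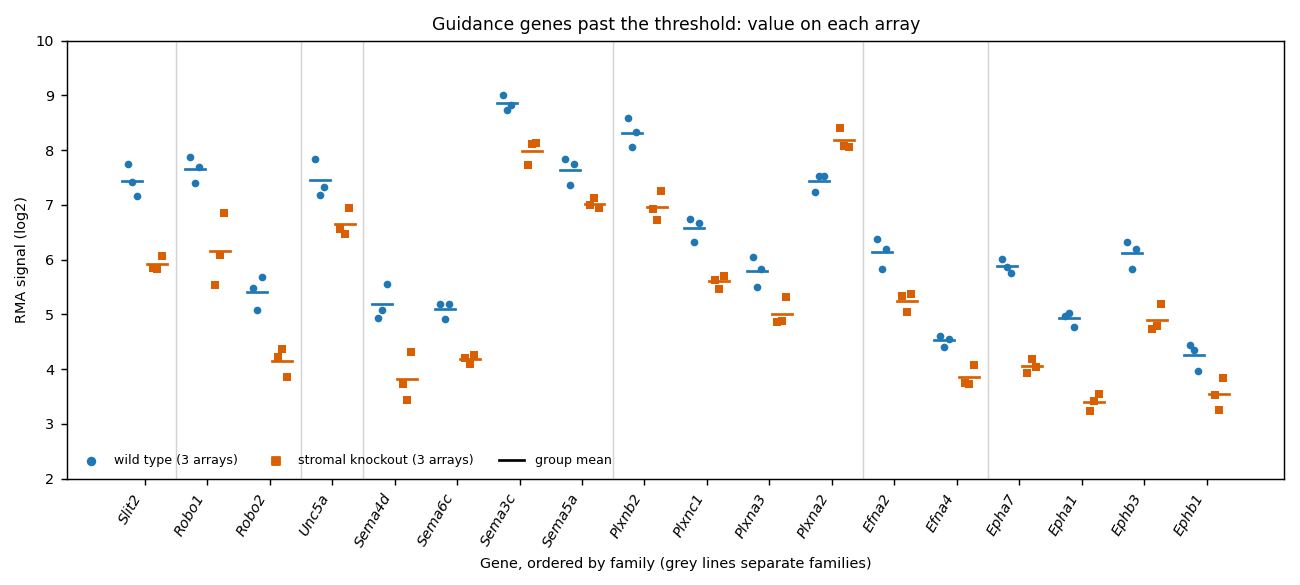
RMA signal (log2) of the 18 guidance genes past the threshold on each array, with circles for wild type, squares for knockout and lines for group means. No gene's groups overlap; Robo1 has the widest spread among knockout arrays (5.53 to 6.85), and Plxna2 is the 1 gene whose knockout arrays lie higher.

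Semaphorins share an extracellular sema domain, and classes differ in being secreted or held in the membrane. Of 20 semaphorins, 4 fell (20%, against 7.20% of all genes), each of a different class, and the median difference was -0.11, beside 0.03 over all genes. Sema4d, a transmembrane ligand of plexin B receptors, read 4.94, 5.08 and 5.56 in wild type and 3.72, 3.44 and 4.31 in the knockout. Its fall of 1.37 ± 0.25 (2.59-fold, adjusted p = 0.0118) was the largest of the family. Sema6c, a transmembrane ligand, read 5.19, 4.92 and 5.20 against 4.21, 4.09 and 4.27. Both groups were tight, and Sema6c fell by 0.91 ± 0.13 (1.88-fold, adjusted p = 0.00461). Sema3c, a secreted ligand of neuropilins and plexins, had the highest signal among semaphorins, at 9.01, 8.74 and 8.82 in wild type and 7.73, 8.11 and 8.13 in the knockout. Every knockout array lay below the wild-type range, a fall of 0.87 ± 0.15 (1.82-fold, adjusted p = 0.00992). Sema5a, a transmembrane semaphorin with thrombospondin repeats, read 7.83, 7.37 and 7.74 against 7.005, 7.12 and 6.95. It fell by 0.62 ± 0.15 (1.54-fold, adjusted p = 0.0341), and the call needed every array but wild type 2 (adjusted p between 0.0750 and 0.110 without one) and was also lost on centring (0.0724).

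The class 6 semaphorins had differences of both signs. Sema6a and Sema6b, transmembrane ligands of plexin A receptors, were higher on every knockout array: Sema6a read 7.94, 7.995 and 7.88 against 8.34, 8.25 and 8.74. Its difference was 0.50 ± 0.15 (adjusted p = 0.0709). Sema6b read 5.97, 5.58 and 5.83 against 6.26, 6.29 and 6.74, a difference of 0.64 ± 0.17 that lay at the threshold (adjusted p = 0.0501). Both passed with low genes left out (0.0496 and 0.0364), with an intensity trend (0.0237 and 0.0276) and with arrays centred (0.0156 and 0.0111). Neither passed with any 1 array left out (adjusted p up to 0.175 and 0.134) or with array weights (0.0794 and 0.0507), and renewed quantile normalization gave 0.0782 for Sema6a and 0.0296 for Sema6b. Sema6d was lower on every knockout array, by 0.29 ± 0.13 (adjusted p = 0.206), as was Sema4c by 0.36 ± 0.12 (adjusted p = 0.103). Sema5b lay higher on every knockout array by 0.16 ± 0.11 (adjusted p = 0.395). The remaining semaphorins above the low level (Sema3a, Sema3b, Sema3d, Sema3e, Sema3f, Sema3g, Sema4a, Sema4b, Sema4g and Sema7a) had overlapping groups and differences from -0.38 (Sema3f) to 0.31 (Sema3e). Sema4g had the largest SE of all 66 genes (0.43), its wild-type arrays reading 4.39, 3.11 and 4.61.

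Among plexins, the semaphorin receptors with an intracellular GTPase-activating domain, 3 of 9 fell and 1 rose, where 7.20% of all genes fell and 5.05% rose; a single rise among 9 genes is too few to set against that share. Plxnb2, the plexin of many epithelia and a Sema4d receptor, read 8.58, 8.06 and 8.32 in wild type and 6.93, 6.72 and 7.25 in the knockout. The groups were well apart, and Plxnb2 fell by 1.35 ± 0.19 (2.56-fold, adjusted p = 0.00417). Plxnb1, the high-affinity Sema4d receptor, read 5.66, 5.13 and 5.39 against 4.63, 3.99 and 4.97. Knockout 3 came close to wild type 2, and the difference of -0.86 ± 0.26 did not pass (adjusted p = 0.0689). It passed without knockout 3 (-1.08, adjusted p = 0.0349), with an intensity trend (0.0453) and with array weights (0.0442), and not without any of the other 5 arrays; the mean of its probe sets gave -0.15 (0.757). Plxnc1, the receptor of Sema7a, read 6.75, 6.33 and 6.68 against 5.63, 5.47 and 5.71. It fell by 0.98 ± 0.15 (1.97-fold, adjusted p = 0.00597), while Sema7a itself differed by -0.09 ± 0.12 (adjusted p = 0.683).

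Plexins of class A moved both ways. Plxna3, which pairs with neuropilin 2, read 6.04, 5.51 and 5.83 in wild type and 4.86, 4.87 and 5.32 in the knockout and fell by 0.78 ± 0.19 (1.71-fold, adjusted p = 0.0339). The call held without wild type 2 or knockout 3 and ended without any of the other 4 arrays (adjusted p between 0.0969 and 0.110). Plxna2, a receptor of Sema6a, read 7.23, 7.53 and 7.53 in wild type and 8.41, 8.08 and 8.07 in the knockout. All knockout arrays were higher, and Plxna2 rose by 0.76 ± 0.15 (1.69-fold, adjusted p = 0.0162); without wild type 1 the difference was 0.66 (adjusted p = 0.0589). Plxna1 and Plxnd1 differed by -0.32 ± 0.14 (adjusted p = 0.180) and -0.23 ± 0.17 (adjusted p = 0.454), with overlapping groups. Nrp1, the co-receptor of class 3 semaphorins and of VEGF, read 9.07, 9.23 and 8.94 against 9.11, 9.10 and 9.36. It differed by 0.11 ± 0.13 (adjusted p = 0.651), and Nrp2, lower on every knockout array, by -0.29 ± 0.13 (adjusted p = 0.199).

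**Figure D4:**
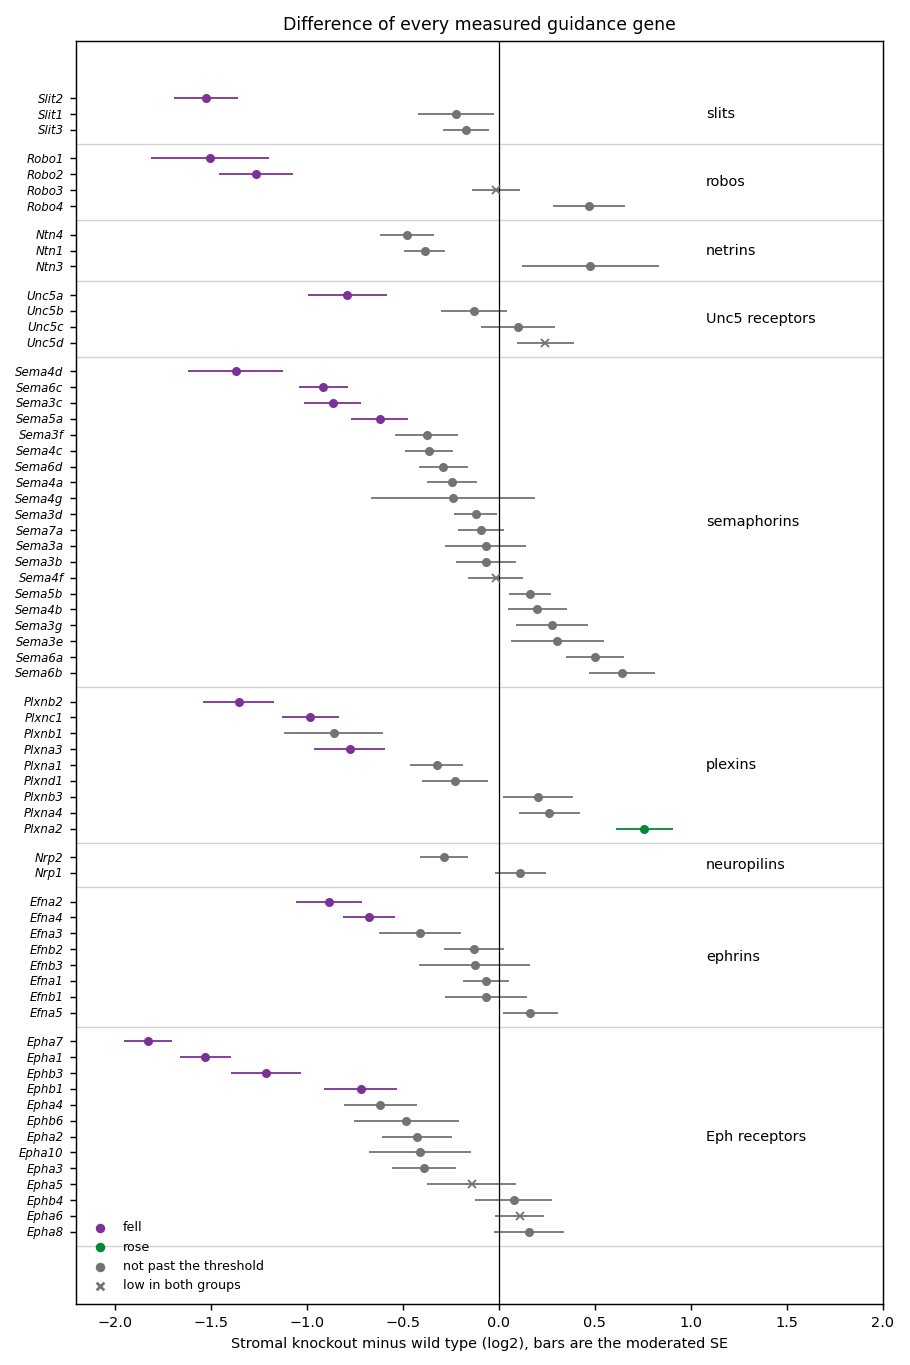
Knockout minus wild type (log2) with the SE of the fit for all 66 guidance genes, grouped by family; colour marks genes that fell or rose and crosses mark genes low in both groups. Falls reach -1.83 (Epha7), -1.53 (Epha1) and -1.53 (Slit2), and the largest positive difference is 0.76 (Plxna2).

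Eph receptors are the largest family of receptor tyrosine kinases and bind ephrins on neighbouring cells. Of 13, 4 fell (30.8%, against 7.20% of all genes), and the median difference was -0.43, beside 0.03 over all genes. Epha7 had the largest fall of all 66 genes: it read 6.02, 5.86 and 5.76 in wild type and 3.94, 4.18 and 4.04 in the knockout. The groups lay more than 1 unit apart with an SD of 0.13 and 0.12, and the fall was 1.83 ± 0.13 (3.55-fold, adjusted p = 0.000321). Epha1, a receptor of epithelia, read 4.98, 5.03 and 4.78 against 3.23, 3.42 and 3.55. It fell by 1.53 ± 0.13 (2.89-fold, adjusted p = 0.000776). Ephb3, known from sorting of epithelial cells in the gut, read 6.32, 5.82 and 6.20 against 4.73, 4.79 and 5.19. None of its knockout arrays reached a wild-type array, and it fell by 1.21 ± 0.18 (2.32-fold, adjusted p = 0.00585).

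Ephb1 read 4.45, 4.35 and 3.98 against 3.53, 3.25 and 3.84 and fell by 0.72 ± 0.19 (1.65-fold, adjusted p = 0.0476). Wild type 3 and knockout 3 nearly met, and the call ended when wild type 1 or 2 or knockout 1 or 2 was left out (adjusted p between 0.112 and 0.149), with either intensity trend (0.0566 and 0.0511), with arrays centred (0.0702), with renewed quantile normalization (0.101) and with the mean of its probe sets (-0.43, 0.0914). Epha4, a receptor that binds ephrins of both classes, was lower on every knockout array (6.46, 6.21 and 6.63 against 6.19, 5.66 and 5.61). Its difference of -0.62 ± 0.19 did not pass (adjusted p = 0.0755). It passed without knockout 1 (-0.80, adjusted p = 0.0306), with an intensity trend (0.0447) and with array weights (0.0471), and not without any of the other 5 arrays (up to 0.205). Epha2, the Eph receptor studied in mammary branching, differed by -0.43 ± 0.18 (adjusted p = 0.186) and Epha3 by -0.39 ± 0.17 (adjusted p = 0.185), each with overlapping groups. Ephb4, the receptor of veins, had the highest signal of the family and read 6.83, 6.21 and 6.82 against 6.48, 6.68 and 6.93. It differed by 0.08 ± 0.20 (adjusted p = 0.850), and its sign turned without wild type 2 or knockout 3.

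Ephrins are the membrane-bound ligands: class A hangs on a lipid anchor and class B spans the membrane. Of 5 class A ephrins 2 fell, where 7.20% of all genes fell, and the 3 class B ephrins had overlapping groups, as did all but 32.7% of all genes. Efna2 read 6.39, 5.84 and 6.19 in wild type and 5.34, 5.04 and 5.38 in the knockout. It fell by 0.89 ± 0.17 (1.85-fold, adjusted p = 0.0154), which no longer passed when wild type 1 or 3 or knockout 2 was left out (0.0554 to 0.0571). Efna4 read 4.61, 4.41 and 4.56 against 3.74, 3.74 and 4.07. The groups did not touch, and Efna4 fell by 0.68 ± 0.14 (1.60-fold, adjusted p = 0.0176), a call that held without wild type 2 or knockout 3 and was lost without any of the other 4 arrays (0.0582 to 0.0684). Efna5 had the highest signal among ephrins and read 7.13, 7.60 and 7.51 against 7.57, 7.54 and 7.62, a difference of 0.17 ± 0.15 (adjusted p = 0.529). Its knockout arrays lay inside or just above the wild-type range. The class B ephrins Efnb1, Efnb2 and Efnb3 differed by -0.07 ± 0.21, -0.13 ± 0.15 and -0.13 ± 0.29, and the class A members Efna1 and Efna3 by -0.07 ± 0.12 and -0.41 ± 0.21.

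By ligand and receptor, Slit2, Robo1 and Robo2 all fell, and so did Sema4d and its receptor Plxnb2, while Plxnb1, the other Sema4d receptor named above, did not pass. For Sema3c the ligand fell while Nrp1, Nrp2 and Plxnd1 did not pass; for Sema7a and Plxnc1 the receptor fell and the ligand did not pass. Of the 18 genes past the threshold, 10 passed under each of the 14 alternatives run, namely Slit2, Robo2, Sema3c, Sema4d, Sema6c, Plxnb2, Plxnc1, Epha1, Epha7 and Ephb3; the other 8 lost the call in at least 1. The means of several marker lists were lower alongside these genes: -2.19 (luminal epithelium), -1.55 (basal and myoepithelium), -0.69 (fibroblasts, a stromal list) and -0.56 (macrophages). Means were also lower for skeletal muscle (-1.14, with wild type 1 standing apart), lymphocytes (-0.33) and Schwann cells (-0.25). The lymphocyte list means overlapped between the groups (3.95 to 4.34 in wild type, 3.77 to 4.09 in the knockout). Of 10 measured Schwann cell markers 3 fell and 1 rose, and their median difference was 0.03, opposite in sign to the mean. List means were higher for thermogenic adipocytes (1.496), endothelium (0.48), pericytes and vascular muscle (0.32) and white adipocytes (0.28). The part of these shifts in the falls was not tested.

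Beyond the ligands and receptors of the named families, a list of 69 further receptors, co-receptors and intracellular effectors of the same systems was examined, of which 65 were measured. Of these, 18 fell and 5 rose (35.4% called, against 12.2% of all genes), with a median difference of -0.27. Farp1, an intracellular partner of plexin A receptors, read 9.02, 8.89 and 8.76 in wild type and 7.23, 7.38 and 7.61 in the knockout and fell by 1.48 ± 0.14 (adjusted p = 0.000970). Sdc1, a heparan sulphate proteoglycan of epithelia, fell by 1.38 ± 0.26 (adjusted p = 0.0139), which missed the threshold when wild type 1 or 3 or knockout 2 was left out (0.0505 to 0.0597). The adaptor gene Nck2 fell by 1.27 ± 0.12 (adjusted p = 0.000916) and Dpysl3, a CRMP that links semaphorin signals to the cytoskeleton, by 1.23 ± 0.14 (adjusted p = 0.00211). The rises were led by Kdr, the VEGF receptor of endothelium, at 8.79, 8.66 and 8.78 against 9.50, 9.57 and 9.72 (0.85 ± 0.12, adjusted p = 0.00412), and Ablim3 (0.83 ± 0.15, adjusted p = 0.0130). The call of Ablim3 was lost without wild type 1 (adjusted p = 0.0521). Dpysl4 rose by 0.77 ± 0.18 (adjusted p = 0.0298), a call lost without wild type 3 or any knockout array (0.0510 to 0.0925), and Vegfa, the ligand of Kdr and Nrp1, by 0.73 ± 0.11 (adjusted p = 0.00519). The small GTPase genes Rac1, Rhoa and Cdc42, on which these pathways converge, differed by -0.14 ± 0.10, 0.10 ± 0.11 and -0.09 ± 0.13 (adjusted p 0.451 to 0.713). Kdr also stands in the endothelial list, whose mean was higher on all 3 knockout arrays. Without wild type 1 the counts were 9 falls and 4 rises, without knockout 1 also 9 and 4, and without knockout 2 they were 7 and 4. With arrays centred they were 11 and 10. Falls and rises over all 22180 genes in the same order were 969 and 521, 1105 and 695, 1003 and 494, and 1178 and 3155.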

How the data were processed

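Total RNA of whole inguinal mammary glands (400 ng per sample) was hybridised to Affymetrix arrays, 1 array for each of 6 samples. The deposited log2 values were made by the authors with RMA, which corrects background, quantile normalizes and sums up the probes of a set, per the submitters' processing notes; the sources used here give no version, chip definition or probe filter, and the base 2 was taken from the use of RMA and the range of values. Of 41345 probe sets, 23521 carry 1 gene symbol in the platform annotation, and the probe set with the highest mean was kept for each of 22180 genes. Groups were compared by lmFit and eBayes of limma 3.58.1 (R 4.3.3), adjusted by Benjamini-Hochberg over all genes (threshold 0.05). The fit was tested on simulated data with independent noise and known changes in a small share of genes. That test does not cover shifts shared by many genes.

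Genes named with values were those past the threshold, the highest member of each family, members not past it whose groups did not overlap, and the 4 largest changes each way among partners; members of small counts and interaction partners were added after values were seen. The genes and lists were chosen with earlier results of these data known. Alternatives were low genes left out, an intensity trend, a robust trend, renewed quantile normalization, centring, the mean of probe sets, the replicate number as a block, array weights, and each array left out.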

Additional observations from a re-analysis of the deposited data

How the results depend on the processing

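Over all genes, 4333 changed with arrays centred and 1490 to 2304 with 1 array left out (2717 as reported). With 1 array left out, guidance genes that fell numbered 10 to 17 (17 as reported), those that rose 0 to 1, semaphorin, plexin and neuropilin genes changed 5 to 8, ephrin and Eph genes 3 to 6, netrin and Unc5 genes 0 to 1, partners and effectors 11 to 19, and 10 to 17 of the 18 guidance genes past the threshold kept their call. The lowest of these counts for all genes, for falls among guidance genes and for ephrin and Eph genes came without wild type 1 or knockout 2 (1490 and 1497, 10 and 10, 3 and 3). Guidance genes that rose numbered 3 with low genes left out, with an intensity trend and with a robust trend, 2 after renewed quantile normalization, and 4 with arrays centred. Netrin and Unc5 genes changed numbered 3 with low genes left out, 2 with array weights and 0 with arrays centred (limma; 2 at an unadjusted p under 0.05). The other settings left these counts within 1.5 times of those reported, apart from the replicate block.

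Same-numbered mice did not deviate together (correlations over genes of -0.034, -0.052 and -0.032), so the numbers were not taken as pairs. With the replicate number as a block, 15 guidance genes fell and 0 rose (limma; 24 and 5 at an unadjusted p under 0.05), 0 netrin and Unc5 genes changed (4 at an unadjusted p under 0.05), 15 partners and effectors changed, and 14 of the 18 guidance genes kept their call. The calls lost with the block were those of Ephb1 (adjusted p = 0.0986), Unc5a (0.0634), Sema5a (0.0774) and Plxna2 (0.0528), and among the partners named that of Dpysl4 (0.0543).

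Slit3 turned to 0.016 with arrays centred, and Ephb4 to -0.13 without wild type 2 and -0.037 without knockout 3 (-0.13 to 0.19 over all arrays left out in turn); neither had passed. The cause was not tested. Signals under 2.68 carry little information on direction.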

Other observations

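Plxna1, Plxnb1 and Ephb1 each had a further probe set with a lower signal, which the highest-mean rule left out. For Plxnb1 the wild-type arrays read 2.36, 2.11 and 1.67 and the knockout arrays 2.17, 2.35 and 3.28. Knockout minus wild type was 0.55 ± 0.30 (limma adjusted p = 0.308 over all probe sets), opposite in sign to the -0.86 of the probe set reported. All 3 of its wild-type arrays and 2 of its knockout arrays lay under 2.68. For Ephb1 the means were 2.94 ± 0.30 (SD, wild type) and 2.80 ± 0.07 (knockout), a difference of -0.14 ± 0.16 beside -0.72. For Plxna1 it differed by -0.28 ± 0.20, beside -0.32 for the probe set reported.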
